A study of Rattus norvegicus with 241 samples.

Results

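Luminal progenitor (LP) cells of the Sprague Dawley (SD) rat mammary gland were examined by single-cell RNA-seq (scRNA-seq) right after peripubertal inhibition of TGFβ receptor signaling. The cells came from 9 tables of luminal cells sorted as CD24+CD29low within the CD31-CD45- fraction, 1 table per rat. A cell was taken as LP when it held at least 2 UMIs (unique molecular identifiers, 1 per captured transcript) of KIT, ELF5, BTN1A1 and MUC15 in sum, and at least 4 times as many as of CITED1, PRLR, NPTX2, AGTR1A and FCGBP, which mark mature luminal (ML) cells. This rule took 11321 of the 23784 luminal-sorted SD cells, out of 160052 cells in the 39 single-cell tables of the series, and the mirrored rule took 6881 ML cells. Among 15982 cells of the basal sorts of the same rats, 18 passed. The authors had removed cells of one sort that clustered with the other before deposit, so that this number was in part fixed beforehand.

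All rats were virgin females of the Hsd:Sprague Dawley SD stock, about 24 days old at the start. They received vehicle (3 rats, numbered 1 to 3) or TGFBRi (6 rats, numbered 9 to 14) by oral gavage, 2 doses a day for 10 days, and the glands were taken on day 0 after the last dose. TGFBRi was LY2157299 (galunisertib, written LY22157299 in the labels), a small molecule that blocks the kinase of TGFβ receptor type I, at 75 mg/kg. The stock is outbred, the drug was given to the whole animal, and each animal gave 1 luminal library, so that the rat was the replicate and animal, sort and library cannot be told apart.

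Luminal progenitors line the ducts, lack estrogen receptor, and are the pool from which the milk-secreting alveolar cells arise. ELF5 and STAT5 drive that step, and casein, whey protein and milk fat genes are its usual readout. TGFβ, acting through its type I and type II receptors and SMAD2, SMAD3 and SMAD4, is known to restrain proliferation and premature milk gene expression in the mammary epithelium.

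Each rat gave 680 to 2276 LP cells and 6132504 to 22254752 UMIs in them (in vehicle rats 1, 2 and 3, 1864, 704 and 1182 cells). The median LP cell held 4892 to 9971 UMIs in vehicle rats and 6434 to 17091 in TGFBRi rats. TGFBRi rats 11 and 12 stood apart. After thinning of each cell to 4000 UMIs, 31.2% (exact binomial 95% interval 28.5 to 33.9) and 25.5% (23.2 to 27.8) of their LP cells held at least 5 UMIs of a list of G2/M genes. The interval covers counting error only. The share was 0.388% to 1.65% in the vehicle rats and 0.355% to 5.15% in the other TGFBRi rats. Without thinning it was 51.8% and 44.6% in rats 11 and 12, 2.90% to 12.9% in the vehicle rats and 1.47% to 10.8% in the other TGFBRi rats. Thinning left out 678 LP cells of the vehicle and 320 of the TGFBRi rats as too shallow, and 55 and 211 of those kept held 4 or 5 such UMIs, near the threshold. Values without these 2 rats are given beside the results where they change a call or a count or move a value by over 1.5 times. Of all barcodes, 68 occurred in more than 1 of the 9 tables, and 10 were LP in more than 1.

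The cells carried further genes of the LP and alveolar state that the rule had not read. EHF, an epithelial transcription factor of these cells, had a median of 764 CPM (UMIs of the gene scaled by all UMIs of these cells in a rat) over the 9 rats in LP cells and 147 in ML cells. CD14, a surface receptor of LP cells, had 863 and 103.1, and the κ-casein gene CSN3 had 8729 and 576. In LP cells of the vehicle rats alone CSN3 was at 2701 to 4778 CPM. ALDH1A3, another gene used to mark progenitors, was lower in LP (20.9) than in ML cells (35.5), and HEY1 was at or near 0 in both. Hormone-sensing genes were low, with medians of 1.13 CPM for ESR1 and 0.528 for PGR in LP cells against 28.6 and 35.7 in ML cells. These levels are descriptions, since the same cells had been divided on related genes.

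With the 4 rule genes set aside, and among genes with a median of at least 50 CPM over the 9 rats, the highest ratios of LP to ML level belonged to AQP1, CSN1S2A, RT1-T24-3, NTN1, FABP3, CSN2, G0S2, CSAP1, SLC5A8 and DAB2. CSN1S2A, FABP3, CSN2 and G0S2 were under 50 CPM in every vehicle rat and reached that median only through the TGFBRi rats, so that they do not describe LP cells of vehicle rats. AQP1 codes for a water channel, FABP3 for a fatty acid carrier and NTN1 for the guidance cue netrin-1. DAB2, an endocytic adaptor, had 58.9 to 249 CPM over the 9 rats against at most 20.2 in ML cells, and SLC5A8, a monocarboxylate transporter, 14.4 to 69.1 CPM against at most 8.45. CSN2, coding for β-casein, ranged from 2.03 to 5641 CPM in LP cells. The highest mean level over the 9 rats, counted by 3′ tags and so not by length, was that of FTH1, the ferritin heavy chain, with a median of 26427 CPM. In each of the 3 vehicle rats AC134224.3, a locus without a gene name, was above it, at 27645 to 40240.0 CPM against 16314 to 25521. CSN1S1, coding for αs1-casein, had a median of 14371 CPM over the 9 rats and 4577 to 8988 in the vehicle rats. In the basal sorts of the same rats CSN1S1 had a median of 8.63 CPM.

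The rule had a threshold, and many cells lay near it. With 2 UMIs of the LP genes, 1750 members were just inside, and 1672 cells with 1 such UMI and none of the ML genes were just outside. A ratio of exactly 4 held for 361 members, a ratio of at least 1 and under 4 kept 1327 cells out, and 1114 cells held UMIs of neither group. In LP cells of the vehicle rats the 4 rule genes summed to 1073, 1272 and 1052 CPM, and in those of the TGFBRi rats to 362 to 785, median 480.2, without overlap. KIT, the stem cell factor receptor, ranged from 355 to 506 CPM in vehicle rats and was as low as 47.6 in a TGFBRi rat. Since a cell needed these transcripts to be counted, these levels were not tested.

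LP cells made up 55.6%, 77.02% and 59.1% of the luminal sort in the vehicle rats (mean 63.9% ± 11.5, SD, n = 3). In TGFBRi rats 9 to 14 they made up 59.2%, 57.2%, 43.8%, 37.6%, 30.2% and 30.0% (mean 43.01% ± 12.9, SD, n = 6). The difference of -20.9 percentage points did not pass the test (two-sided exact permutation test over the 84 splits, p = 0.119, smallest possible p = 0.0238). Rats 9 and 10 lay within the vehicle range and the other 4 below it. With all cells thinned to 4000 UMIs and shallower cells left out (1237 of 6266 cells in vehicle and 1063 of 17518 in TGFBRi rats), the difference was -30.8 points (p = 0.0238, exact, the smallest possible). The share counts cells by the 4 rule genes, whose level per cell moved with it, as given above. The test thus read the values that the rule had used. A smaller share of LP cells and fewer LP transcripts per cell cannot be told apart, and no change in the share is read from it. Without rats 11 and 12 the difference was -19.7 points (p = 0.286, exact). In the whole glands described below the share differed in the opposite direction.

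**Figure D1:**
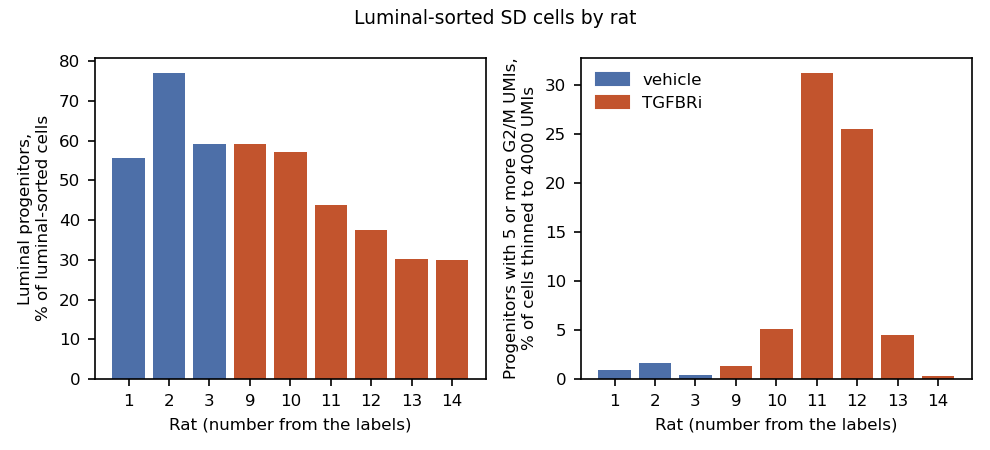
LP cells as a percentage of the luminal sort, and G2/M-high cells as a percentage of LP cells, in each rat, the latter after thinning to 4000 UMIs per cell. Each bar is 1 rat, vehicle in blue and TGFBRi in red, on axes in percent. The LP share lies between 77.02% in vehicle rat 2 and 30.0% in TGFBRi rat 14 with overlap between the groups, and the G2/M-high share is 31.2% and 25.5% in TGFBRi rats 11 and 12 and at most 5.15% in the other rats.

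Gene expression in LP cells was then compared between TGFBRi and vehicle rats on UMIs summed per rat (edgeR quasi-likelihood test, Benjamini-Hochberg adjusted p of at most 0.1). A gene is said below to have risen or fallen only where it passed this test, and fold changes are log2 with the standard error from DESeq2. Of 10802 genes tested, 4034 (37.3%) were called, 2068 (19.1%) higher and 1966 (18.2%) lower with TGFBRi. The call depended on the 3 vehicle rats. The count was 2 genes without vehicle rat 1 (3001 at an unadjusted p under 0.05), 63 without vehicle rat 3 and 731 without vehicle rat 2, against 2790 to 4804 when a TGFBRi rat was left out. Of the called genes that were tested in these fits, all kept their direction in each of the 9. These genes were chosen in the fit of all rats, which shares all but 1 rat with each, so that this is no separate support. Without rats 11 and 12, 2739 of 10402 genes (26.3%) were called, 13% higher and 13.3% lower.

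A gene entered the test when at least 3 rats had 1.03 CPM or more, which is 10 UMIs at the median depth. Of the genes tested, 510 met this in the TGFBRi rats alone, 153 of them called higher and 0 lower, and 358 met it in the vehicle rats alone, 209 of them called lower and 0 higher. Such a gene was tested because of the group in which it was high. Its level is given below with no change read from it, and a list that holds called genes of this kind is given with and without them. Of the 9740 genes that met it in both groups, 19.7% were called higher and 18% lower, and without rats 11 and 12 these shares were 14% and 12.8%.

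Levels are given below as plain CPM of the summed UMIs. Plain CPM placed the median change of all genes at -0.25 on the log2 scale, against 0.05 with the TMM scaling used in the test, and 27.8% of all genes tested were lower without overlap on plain CPM and 3.79% higher, against 17.3% and 14.9% on TMM-scaled values. The median of a list is given with TMM scaling. On plain CPM the medians of the lists for LP and alveolar regulators, milk fat synthesis, cholesterol synthesis, mature luminal genes, ID and BMP targets, interferon-stimulated genes and leukocyte markers were below 0 (-0.19, -0.12, -0.26, -0.08, -0.13, -0.02 and -0.09) where they were above 0 with TMM, and those of the other lists kept their sign. The 32 lists were read against the shares of all genes called.

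TGFβ target genes came first, as the check of the drug in these cells. Of 17 tested targets, 8 fell and 2 rose, with a median log2 fold change of -0.51 (all genes 0.05). The SMAD corepressor SKIL had 202, 206 and 150.2 CPM in the vehicle rats and 30.6 to 96.1, median 35.8, in TGFBRi rats, without overlap (log2 fold change -1.55 ± 0.37, adjusted p = 0.0274). SMAD7, the inhibitory SMAD that TGFβ itself induces, had 52.4, 49.6 and 52.6 CPM against 9.64 to 24.8, median 18.4 (log2 fold change -1.25 ± 0.35, adjusted p = 0.0317). Both fell as well without rats 11 and 12, by 1.29 (adjusted p = 0.0288) and 0.94 (adjusted p = 0.0213) on the log2 scale. THBS1, coding for the TGFβ activator thrombospondin-1, was among the most abundant targets, with 2388, 2976 and 1727 CPM in vehicle rats and 83.1 to 1251, median 412, in TGFBRi rats (log2 fold change -1.69 ± 0.85, adjusted p = 0.0959).

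LTBP2, a latent TGFβ binding protein, had 13.2, 13.5 and 5.91 CPM against 0.569 to 3.75, median 1.12 (log2 fold change -2.41 ± 0.55, adjusted p = 0.0274). CCN2, coding for connective tissue growth factor, fell in the test (log2 fold change -1.86 ± 0.56, adjusted p = 0.0389) although the groups overlapped, at 22.995, 12.1 and 55.5 CPM against 1.71 to 14.5, median 6.64. The transcriptional repressor BHLHE40, PMEPA1, a dampener of receptor signaling, and the matricellular gene CCN1 fell with log2 fold changes of -1.44, -0.92 and -0.68, of which BHLHE40 passed without rats 11 and 12. JUNB and BAMBI, a decoy receptor, rose with log2 fold changes of 0.67 and 0.88, and neither passed without rats 11 and 12, at 0.65 (adjusted p = 0.121) and 0.93 (adjusted p = 0.112). Without rats 11 and 12, 6 targets fell and 0 rose, of which LTBP2 had then passed the filter in vehicle rats alone.

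**Figure D2:**
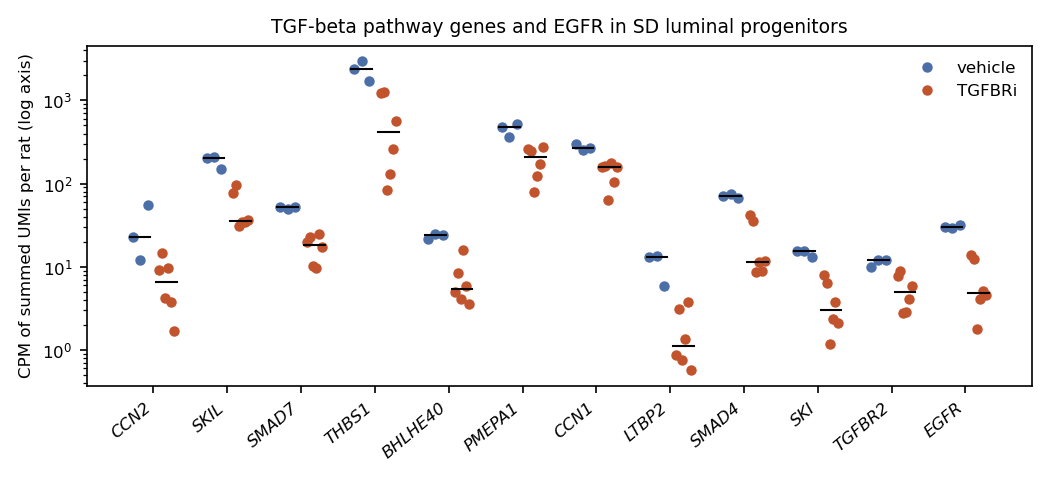
Level of TGFβ targets and of SMAD, SKI and receptor genes in LP cells of each rat, with EGFR of the EGF family, on a log axis in CPM. Points are rats, vehicle in blue and TGFBRi in red, and the short lines are group medians. SKIL and SMAD7 lie lower in all 6 TGFBRi rats than in any vehicle rat, and CCN2 overlaps.

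The genes of the receptors and transducers themselves were then examined. Of 21 tested, 7 fell and 0 rose (median -0.51), where 18.2% of all genes fell. Without rats 11 and 12, 4 fell (SMAD4, SKI, BMPR1A and BMPR2), where 13.3% of all genes did, and the median was -0.25. SMAD4, the shared partner of the receptor-activated SMADs, had 71.8, 75.5 and 66.3 CPM in vehicle rats and 8.72 to 42.3, median 11.5, in TGFBRi rats (log2 fold change -1.55 ± 0.50, adjusted p = 0.0429). The corepressor SKI had 15.5, 15.4 and 13.1 against 1.17 to 7.93, median 3.05 CPM (log2 fold change -1.59 ± 0.50, adjusted p = 0.0405). BMPR1A and BMPR2, receptors for bone morphogenetic proteins, fell with log2 fold changes of -0.87 and -0.77, the activin receptor ACVR2A by 0.74, SMAD1 by 0.73 and LTBP1 by 0.84. The drug target TGFBR1 had 33.6, 44.6 and 22.9 CPM in vehicle rats and 11.4 to 25.8, median 19.4, in TGFBRi rats (log2 fold change -0.48 ± 0.34, adjusted p = 0.247), with overlap, and TGFBR2 and TGFBR3 did not pass either (adjusted p = 0.153 and 0.189). TGFB1, the ligand, was below 4 CPM in every rat.

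Most milk protein genes rose with TGFBRi. Of 10 tested, 8 rose and 0 fell (median 2.01), and 8 rose without rats 11 and 12 (median 1.67). Their summed level was 16709, 24858 and 18818 CPM in the vehicle rats and 37237 to 86448, median 41151, in TGFBRi rats, without overlap. Casein genes lie in a cluster and respond to prolactin through STAT5, which binds the letters TTCNNNGAA. In RefSeq promoters of build GRCr8, from 250 bases before to 50 after the gene start, these letters occurred in 5 of the 11 milk genes of the list, against 8.87% of 33469 promoters. The motif reads the same on both strands. The 5 promoters are printed because their genes include those that rose most, with the motif in capitals.

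CSN1S1 (chr14:20638800-20639099, minus strand): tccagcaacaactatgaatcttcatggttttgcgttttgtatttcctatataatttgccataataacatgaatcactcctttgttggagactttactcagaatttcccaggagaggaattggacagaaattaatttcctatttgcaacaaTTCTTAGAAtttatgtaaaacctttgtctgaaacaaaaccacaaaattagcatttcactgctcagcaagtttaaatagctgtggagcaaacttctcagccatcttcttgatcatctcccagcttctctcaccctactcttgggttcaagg
CSN1S2A (chr14:20574422-20574721, minus strand): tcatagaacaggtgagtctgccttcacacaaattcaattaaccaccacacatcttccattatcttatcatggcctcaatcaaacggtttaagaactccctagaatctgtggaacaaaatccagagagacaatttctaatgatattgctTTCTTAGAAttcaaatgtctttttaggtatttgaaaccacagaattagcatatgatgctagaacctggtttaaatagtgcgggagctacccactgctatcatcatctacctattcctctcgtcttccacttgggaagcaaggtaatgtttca
CSN1S2B (chr14:20545569-20545868, minus strand): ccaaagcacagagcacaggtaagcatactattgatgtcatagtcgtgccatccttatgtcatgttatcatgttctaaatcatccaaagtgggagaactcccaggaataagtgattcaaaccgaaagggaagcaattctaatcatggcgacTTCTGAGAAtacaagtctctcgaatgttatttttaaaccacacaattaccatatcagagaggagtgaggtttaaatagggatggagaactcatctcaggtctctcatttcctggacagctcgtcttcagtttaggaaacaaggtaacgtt
CSN2 (chr14:20601574-20601873, plus strand): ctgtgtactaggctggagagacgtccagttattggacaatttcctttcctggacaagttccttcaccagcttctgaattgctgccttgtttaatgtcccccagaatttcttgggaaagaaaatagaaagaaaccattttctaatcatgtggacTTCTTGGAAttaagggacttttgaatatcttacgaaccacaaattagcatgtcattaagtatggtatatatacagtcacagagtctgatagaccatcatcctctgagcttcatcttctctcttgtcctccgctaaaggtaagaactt
GLYCAM1 (chr7:136561250-136561549, minus strand): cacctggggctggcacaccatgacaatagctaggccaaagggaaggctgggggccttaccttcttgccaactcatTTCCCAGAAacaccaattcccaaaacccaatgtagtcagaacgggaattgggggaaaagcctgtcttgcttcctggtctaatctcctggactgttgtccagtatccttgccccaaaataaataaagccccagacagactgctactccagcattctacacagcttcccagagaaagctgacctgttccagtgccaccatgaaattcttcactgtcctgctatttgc

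The motif began 97 bases before the start in the nearest case and a few bases farther off in the others of the 4 casein genes CSN2, CSN1S1, CSN1S2B and CSN1S2A, and 175 bases before it in GLYCAM1. A match is a description of the sequence, and no binding was measured.

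WAP, coding for whey acidic protein, had 103.96, 219 and 166 CPM in vehicle rats and 494 to 1301, median 779, in TGFBRi rats, without overlap (log2 fold change 2.65 ± 0.36, adjusted p = 0.0120). CSN1S1, with the motif shown above, had 4577, 8988 and 5995 against 13236 to 54376, median 16453 CPM (log2 fold change 2.23 ± 0.45, adjusted p = 0.0274), and without rats 11 and 12 the log2 fold change was 1.60 (adjusted p = 0.0150). CSN3, whose promoter window lacks these letters, had 2701, 3012 and 4778 against 7699.6 to 12212, median 9760.1 CPM and the same adjusted p as WAP (log2 fold change 1.79 ± 0.26, adjusted p = 0.0120). All 6 TGFBRi rats exceeded every vehicle rat for these 3 genes. GLYCAM1, coding for a mucin-like milk glycoprotein, had 8.31, 20.8 and 9.73 CPM in vehicle rats and 42.3 to 2047, median 216, in TGFBRi rats (log2 fold change 6.01 ± 1.10, adjusted p = 0.0274). Its 2 highest values were in rats 11 and 12, and without them the log2 fold change was 4.07 (adjusted p = 0.0165).

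CSN2 and CSN1S2A overlapped between the groups. CSN2 had 2.03, 44.5 and 47.05 CPM against 20.5 to 5641, median 212 (log2 fold change 6.24 ± 1.57, adjusted p = 0.0527), and without rats 11 and 12 it did not pass, at 2.58 (adjusted p = 0.152). CSN1S2A had 1.93, 13.2 and 2.71 against 6.58 to 1869.5, median 132 CPM (log2 fold change 6.68 ± 1.34, adjusted p = 0.0328), and 4.47 (adjusted p = 0.0493) without rats 11 and 12. CSN1S2B and MFGE8, a milk fat globule protein, rose by less, with log2 fold changes of 0.51 and 0.71, and both overlapped. LALBA, coding for the α-lactalbumin of lactose synthesis, had 5685, 6973 and 4522 CPM against 2414 to 10230.0, median 8123, and did not pass (adjusted p = 0.247), while it did without rats 11 and 12, at 1.03 (adjusted p = 0.0296). XDH had 207, 394 and 252 CPM against 151 to 376, median 286 (adjusted p = 0.424). LTF was not among the genes counted in these cells, and its promoter alone was read above. The same genes were also counted at lower level in ML cells of these libraries, with CSN1S1 at 64.1 to 218 CPM in vehicle and 765 to 4852 in TGFBRi rats, and the part of RNA free in the suspension in these levels was not tested.

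**Figure D3:**
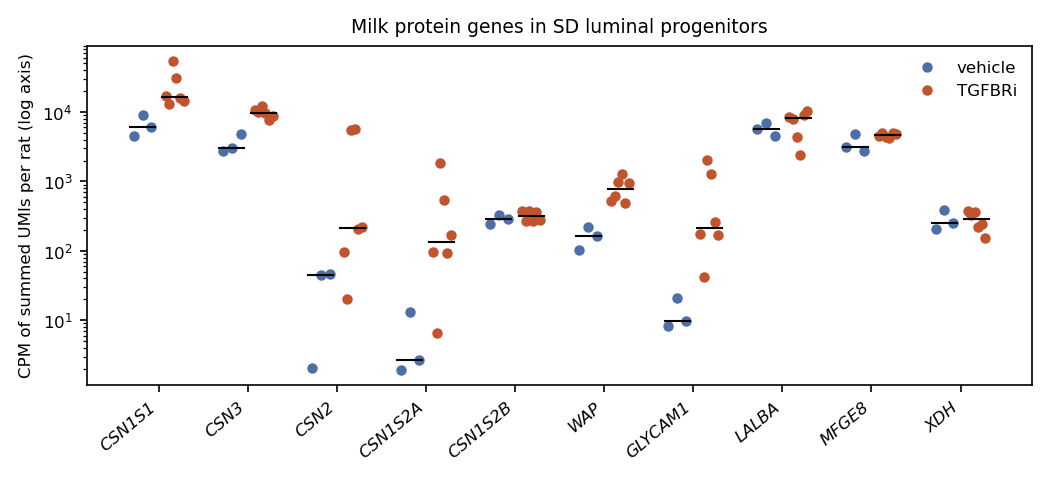
Milk protein genes in LP cells of each rat, on a log axis in CPM. Points are rats, vehicle in blue and TGFBRi in red, and the short lines are group medians. WAP, CSN1S1 and CSN3 are separate between the groups, and CSN2 spreads from 20.5 to 5641 CPM among the TGFBRi rats.

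Genes of milk fat synthesis moved in part. Of 15 tested, 5 rose and 1 fell, both with all rats and without rats 11 and 12. FABP3 had 8.50, 37.8 and 18.8 CPM in vehicle rats and 52.6 to 1402, median 97.4, in TGFBRi rats (log2 fold change 4.64 ± 1.10, adjusted p = 0.0349), and the log2 fold change was 2.37 (adjusted p = 0.0165) without rats 11 and 12. THRSP, a regulator of lipogenesis, had 205, 271 and 259 against 214 to 1792, median 697 CPM (log2 fold change 2.00 ± 0.48, adjusted p = 0.0329), and 1.35 (adjusted p = 0.0366) without these rats. Fatty acid synthase, FASN, rose with a log2 fold change of 0.75, DGAT1, the enzyme that completes triglycerides, of 0.85 and the elongase ELOVL1 of 0.63. LPIN1, a phosphatidate phosphatase, had 29.95, 30.3 and 28.3 against 2.79 to 13.3, median 5.31 CPM, without overlap (log2 fold change -1.73 ± 0.50, adjusted p = 0.0349). PLIN2, coding for the lipid droplet coat protein, had 1672, 1394 and 1675 CPM against 197 to 1446, median 458, and did not pass (adjusted p = 0.263).

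Regulators of the LP and alveolar state held few calls. Of 17 tested, 2 rose and 3 fell, where 19.1% of all genes rose and 18.2% fell. No shift of the list is read from these calls. NFIB, a transcription factor of milk genes, had 292, 349.6 and 292 CPM in vehicle rats and 61.7 to 172, median 90.7, in TGFBRi rats, without overlap (log2 fold change -1.24 ± 0.31, adjusted p = 0.0280). The cytokine LIF had 31.98, 43.3 and 20.3 against 2.35 to 15.4, median 6.63 CPM (log2 fold change -1.74 ± 0.57, adjusted p = 0.0460), and STAT5B fell with a log2 fold change of -0.58. TFAP2C and BATF rose with log2 fold changes of 0.83 and 1.26, of which BATF did not pass without rats 11 and 12, at 0.51 (adjusted p = 0.345). EHF had 1157, 1065 and 1037 CPM against 283 to 939, median 436, without passing (adjusted p = 0.143), and CD14 had 868, 785 and 1093 against 499.9 to 1033, median 844 (adjusted p = 0.734). CYP24A1, the vitamin D 24-hydroxylase, did not pass with all rats (log2 fold change 1.31) but did without rats 11 and 12, at 1.83 (adjusted p = 0.0443).

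The EGF, Notch and BMP lists are short, and their counts were read against the 19.1% of all genes that rose and 18.2% that fell. EGFR had 30.2, 29.3 and 32.02 CPM in vehicle rats and 1.80 to 13.9, median 4.80, in TGFBRi rats, without overlap (log2 fold change -1.84 ± 0.51, adjusted p = 0.0330), and was the 1 called gene of 9 tested EGF ligands and receptors. ERBB3, its partner, had 98.6, 143 and 87.2 against 49.8 to 90.7, median 66.7 CPM (adjusted p = 0.331). Of 8 tested Notch pathway genes, 2 fell, the receptors NOTCH2 (log2 fold change -0.71) and NOTCH3 (-1.31), both also without rats 11 and 12. Of 6 tested ID and BMP genes, 1 was called higher, the ligand BMP7, which passed the filter in TGFBRi rats alone, and 0 were without rats 11 and 12.

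Most cell cycle genes that were measured in both groups rose with all rats, and most of those calls were not made without rats 11 and 12. Of 17 S phase genes that passed the filter in both groups 10 rose, and of 16 G2/M genes 12 did. Another 11 S phase genes and 22 G2/M genes passed it in the TGFBRi rats alone, with 9 and 14 of them called, MCM5, CCNA2, CENPA and CDCA3 among them, which brings the counts to 19 of 28 and 26 of 38. Without rats 11 and 12, 4 of 17 S phase genes that passed in both groups rose (MCM7, GMNN, RFC4 and SLBP), and 1 of 14 G2/M genes did (CDCA8). The proliferation marker MKI67 had 13.4, 23.2 and 1.97 CPM in vehicle rats and 2.13 to 152, median 39.9, in TGFBRi rats (log2 fold change 2.62 ± 1.12, adjusted p = 0.0968), with overlap, and its log2 fold change was 1.22 (adjusted p = 0.379) without rats 11 and 12. CCNA2, coding for cyclin A2, had 0.966, 1.75 and 0.123 against 0.569 to 30.3, median 5.56 CPM, and no change was read from it. CDK1, the mitotic kinase, was at 4.25, 8.36 and 1.11 against 1.99 to 88.2, median 20.9 CPM (log2 fold change 3.35 ± 1.07, adjusted p = 0.0515), and 1.83 (adjusted p = 0.121) without rats 11 and 12. MCM7, a subunit of the replicative helicase, rose with a log2 fold change of 1.62, and 0.74 (adjusted p = 0.0546) without these rats, and the histone mRNA binding gene SLBP with 0.70. TOP2A, the mitotic topoisomerase, did not pass (adjusted p = 0.143). The G2/M-high share of LP cells averaged 0.996% ± 0.635 (SD, n = 3) in vehicle and 11.3% ± 13.4 (SD, n = 6) in TGFBRi rats, and rat 14 at 0.355% was below every vehicle rat. The difference of 10.3 points was 1.83 points without rats 11 and 12. With every LP cell of at least 5 G2/M UMIs before thinning left out, 3890 of 10288 genes (37.8%) were called. This kept 572 of 1186 LP cells in rat 11, 804 of 1450 in rat 12 and 613 of 704 in vehicle rat 2. It thus removed more cells than the share after thinning counts.

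Most respiratory chain genes rose, and so did 18 of 33 ribosomal protein genes. Of 26 tested nuclear-encoded subunits of the respiratory chain and ATP synthase, 23 rose and 0 fell (median 0.91), and 18 rose without rats 11 and 12. Their summed level was 6013, 6668 and 6059.8 CPM in vehicle and 7246 to 12464, median 8515, in TGFBRi rats, without overlap. NDUFB8 of complex I had 188, 210.2 and 172 against 257 to 519.7, median 329 CPM (log2 fold change 1.19 ± 0.26, adjusted p = 0.0266). UQCRH of complex III, COX4I1 and COX5B of complex IV and ATP5MC1 of the ATP synthase rose with log2 fold changes of 0.93, 0.66, 1.16 and 1.58. COX6C did not pass (adjusted p = 0.130). Among 33 tested ribosomal protein genes 18 rose and 1 fell, the same counts as without rats 11 and 12. RPS2 had 2923, 3661 and 3601 CPM in vehicle rats and 3884 to 6782, median 5392, in TGFBRi rats (log2 fold change 1.01 ± 0.23, adjusted p = 0.0274), and RPL13 3955, 3796 and 4339.8 against 5071 to 5820.3, median 5607. RPS27A, which encodes a fusion of ubiquitin with a ribosomal protein, was the 1 that fell (log2 fold change -0.85 ± 0.29, adjusted p = 0.0434). Ribosomal protein genes share sequence with many pseudogenes, and how the counting split such reads was not tested.

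Chaperone and amino acid genes rose in part. Of 15 tested heat shock genes 7 rose and 0 fell, and 8 rose without rats 11 and 12, with HSPA5 added. The cytosolic chaperone HSPA8 had 993, 1250.2 and 1281 CPM in vehicle rats and 1442 to 2377, median 2084, in TGFBRi rats, without overlap (log2 fold change 1.07 ± 0.23, adjusted p = 0.0274). HSP90AA1 had 274, 308 and 303 against 394 to 641, median 457 CPM (log2 fold change 1.04 ± 0.25, adjusted p = 0.0286), while HSP90AB1 had 4209, 4281 and 4550.5 against 3606 to 4629.9, median 4259.6 (adjusted p = 0.269). HSPD1 and HSPE1, the mitochondrial chaperonin pair, rose with log2 fold changes of 1.25 and 1.93, and the small heat shock gene HSPB1 with 2.56. Of 17 tested genes of the integrated stress response 5 rose, and 6 did without rats 11 and 12, with SLC3A2 added. The 5 were PHGDH, PSAT1 and SHMT2 of serine and glycine synthesis, the amino acid transporter SLC7A5, and HERPUD1 of protein degradation at the endoplasmic reticulum. PHGDH, the first enzyme of serine synthesis, had 10.05, 23.7 and 19.1 CPM against 34.8 to 178, median 78.998 (log2 fold change 2.68 ± 0.47, adjusted p = 0.0255), and PSAT1 2.80, 3.24 and 1.97 against 3.46 to 45.7, median 8.53 (log2 fold change 3.02 ± 0.70, adjusted p = 0.0386). Their log2 fold changes were 2.06 (adjusted p = 0.0165) and 1.56 (adjusted p = 0.0321) without rats 11 and 12. ATF4, the factor the list is named for, had 1100.3, 857 and 952 CPM against 750.4 to 1165, median 897 (adjusted p = 0.463), and XBP1 did not pass either (adjusted p = 0.144).

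**Figure D4:**
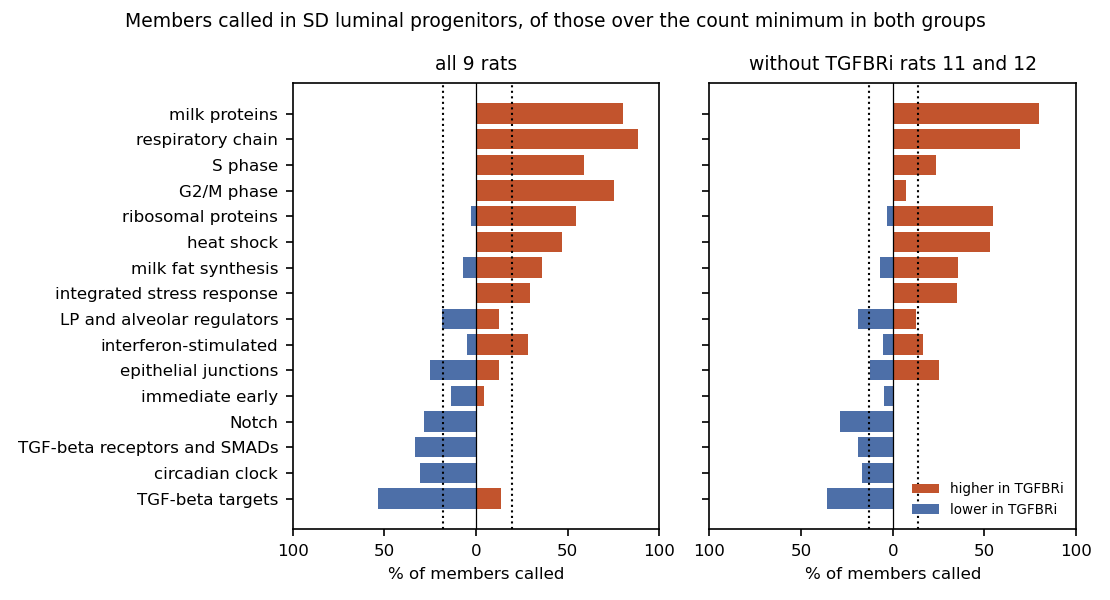
Percentage of the genes of each list that were called higher (red, to the right) or lower (blue, to the left) with TGFBRi in LP cells, with all 9 rats and without TGFBRi rats 11 and 12. Members that passed the filter on low counts in 1 group alone are left out, and dotted lines are the shares of all genes called among those that passed in both, 19.7% higher and 18% lower with all rats. The bars of the milk protein and respiratory chain lists pass the dotted line in both panels, while 12 of 16 G2/M genes are called higher on the left and 1 of 14 on the right.

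Some clock genes fell. Of 15 tested, 6 fell and 0 rose, where 18.2% of all genes fell. Among the 13 that passed the filter in both groups 4 fell (ARNTL, CLOCK, PER1 and BHLHE40, median of the 13 -0.63), where 18% of all such genes did. When rats 11 and 12 were left out 4 fell, where 13.3% of all genes did. Of these 4, 2 were measured in both groups (CLOCK and BHLHE40), where 12.8% of all such genes fell. No shift of the list is read from these 2 calls. PER1 had 5.51, 13.5 and 10.3 CPM in vehicle rats and 0.284 to 3.35, median 0.818, in TGFBRi rats, without overlap (log2 fold change -2.46 ± 0.66, adjusted p = 0.0319), while the repressor BHLHE41, at 6.47, 9.17 and 4.43 against 0.404 to 2.29, median 0.797 CPM, and HLF passed the filter in vehicle rats alone. CLOCK and its partner ARNTL fell with log2 fold changes of -0.70 and -0.71, and BHLHE40 as given above. The hour at which each gland was taken is not given in the sources used here, and its part in these values was not tested.

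Junction genes changed in both directions, and of 6 tested luminal keratins 1 fell and 0 rose. Luminal keratins took 0.580%, 0.444% and 0.538% of LP UMIs in the vehicle rats and 0.344% to 0.733% (median 0.618%) in TGFBRi rats, with the 2 lowest values in rats 11 and 12. The difference of the means, 0.0333 points, was 0.131 points without these rats. KRT8 had 3815, 2822 and 3384 CPM against 2087 to 4820.4, median 3790.3, and KRT18 1676, 1282 and 1728 against 1290.2 to 2359, median 2114, and neither passed with all rats (adjusted p = 0.393 and 0.111). Without rats 11 and 12 both passed, at 0.66 (adjusted p = 0.0864) and 0.88 (adjusted p = 0.0383). KRT80 fell (log2 fold change -0.99) and did not pass without these rats. Of 18 tested junction genes, 2 rose and 5 fell (median -0.15), where 19.1% of all genes rose and 18.2% fell. DSP, among those that fell, passed the filter in vehicle rats alone. Without rats 11 and 12, 4 of 17 were higher (CLDN3, CLDN4, CLDN7 and CRB3) and 2 lower (CGN and DSC2), with a median of 0.01. Of all genes 13% were then higher and 13.3% lower, and no shift of the list is read from these few calls. The tight junction gene CLDN3 had 716, 646 and 618 CPM against 727 to 1269, median 839, and rose with a log2 fold change of 0.87, and CLDN7 rose with 0.81. CGN, coding for cingulin, had 58.6, 84.3 and 56.4 against 23.5 to 41.9, median 28.4 CPM (log2 fold change -0.83 ± 0.21, adjusted p = 0.0288). TJP1 and the desmosomal genes DSG2 and DSC2 fell with log2 fold changes of -0.81, -0.71 and -0.98, of which DSC2 passed without rats 11 and 12 and the others did not.

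Immediate early genes, which tissue dissociation also induces, were high in all rats. Of 22 tested, 3 fell and 1 rose, JUNB as given above (median -0.27), where 18.2% of all genes fell and 19.1% rose. EGR1 had 564, 592 and 960.0 CPM in vehicle rats and 209 to 442, median 313, in TGFBRi rats (log2 fold change -0.86 ± 0.27, adjusted p = 0.0379), and FOSB 1689, 1654 and 3083 against 304 to 1428, median 826 (log2 fold change -1.10 ± 0.48, adjusted p = 0.0990). FOS overlapped, at 905, 740.1 and 2252 against 169 to 971, median 488 CPM (log2 fold change -1.12). EGR1 was the 1 gene of the list that fell without rats 11 and 12, and the median of the list was then -0.08. The summed level of the list was 14106, 14344 and 19479.7 CPM against 8351 to 12531, median 11194, without overlap. Plain CPM put 27.8% of all genes lower without overlap. The part of dissociation in the results above was not tested.

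The rule for the largest changes took 10 called genes in each direction with a mean of at least 20 UMIs over the rats and no overlap. Of those that rose, GLYCAM1, FABP3, PSAT1, PHGDH and WAP are given above, and LOC108348061 had 3.19, 2.56 and 1.72 CPM in vehicle rats and 10.1 to 109, median 13.4, in TGFBRi rats (log2 fold change 3.87 ± 0.66, adjusted p = 0.0274), and 2.65 (adjusted p = 0.00590) without rats 11 and 12. The other 4, WFDC3, which shares a protein domain with WAP, CNIH2, CENPT of the centromere and POLE2 of DNA replication, passed the filter on low counts in TGFBRi rats alone, and no change was read from them. WFDC3 had 0.966, 0.809 and 2.83 CPM against 6.82 to 26.3, median 8.58, and the other three were under 1 CPM in every vehicle rat. Of the 10 that fell, CTTN, coding for the actin-binding cortactin, MRPL1 of the mitochondrial ribosome, NEWGENE-1359268 and AABR07043347.1 passed it in vehicle rats alone and were likewise not read. CTTN had 9.56, 3.78 and 6.77 CPM in vehicle rats and 0 to 1.85, median 0.233, in TGFBRi rats. Among the others the receptor FGFR3 had 11.9, 9.30 and 12.7 CPM against 0.270 to 1.996, median 1.08 (log2 fold change -3.14 ± 0.57, adjusted p = 0.0188). MYH9L1, related by name to non-muscle myosin, fell with a log2 fold change of -2.69. LOC103690108, LOC103689965, AABR07062344.4 and AABR07011951.1 are loci without a gene name, with log2 fold changes of -3.34 to -2.73. These 6 genes kept their call without rats 11 and 12. In ML cells all but LOC103689965, which was not tested there, fell too, with log2 fold changes of -3.64 to -2.03. In the ACI LP cells described below FGFR3 had -1.42 and the others -0.65 to -0.06, of which MYH9L1 and AABR07011951.1 did not pass. In the whole-gland LP cells described below none fell, and AABR07011951.1 rose (0.68, adjusted p = 0.0270).

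Markers of other cell types were low in LP cells. Basal and myoepithelial markers summed to 48.2, 38.6 and 46.3 CPM in vehicle rats and 12.4 to 55.8, median 26.5, in TGFBRi rats, over 12 markers, of which TP63 had a median of 0 and KRT14 of 3.69. In the basal sorts KRT14 had a median of 189 CPM. Of 8 tested, 2 fell (KRT5 and MYLK), and without rats 11 and 12 KRT5 alone was called and had then passed the filter in vehicle rats alone. Fibroblast markers (11 in the tables, 3 at 0 in every rat, COL1A2 and LUM among them) summed to 0.809 to 1.64 CPM in vehicle and 0.711 to 5.25 in TGFBRi rats, and COL1A1, the 1 that passed the filter on low counts, did so through the TGFBRi rats, so that no change was read from it. Endothelial markers summed to 2.16 to 2.71 against 0.989 to 2.27 CPM, and the 1 tested, VWF, passed the filter in vehicle rats alone, so that no change was read from it. Leukocyte markers summed to 15.3 to 30.3 against 9.24 to 27.9 CPM, most of it LCP1, which did not pass. Their part in the results was not tested. With every cell holding a UMI of basal or stromal markers left out, 4003 genes were called.

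The effect of TGFBRi was next compared between LP and ML cells of the same 9 rats in 1 model. In ML cells 4276 of 11028 genes (38.8%) were called, and 2025 without rats 11 and 12. The difference between the effects passed for 4 of 11888 genes (0.0336%), with 1209 at an unadjusted p under 0.05, and for 22 genes without rats 11 and 12. PGM3, an enzyme of amino sugar synthesis, had 10.3, 12.1 and 6.65 CPM in LP cells of vehicle rats and 12.7 to 52.6, median 28.1, in those of TGFBRi rats (log2 fold change 1.98 ± 0.36, adjusted p = 0.0241), and a log2 fold change of 0.45 in ML cells. TNFRSF19, a receptor of the TNF family, had 9.47, 9.17 and 9.48 CPM against 9.81 to 26.3, median 14.9, in LP cells, where it rose with a log2 fold change of 1.11, and it fell in ML cells (-1.02, adjusted p = 0.0188). ACSL3, a fatty acyl-CoA ligase, had 39.2, 41.5 and 46.4 CPM against 21.2 to 82.4, median 51.2, in LP cells without passing and fell in ML cells (-1.14, adjusted p = 0.0260). The log2 differences, LP minus ML, were 1.45 for PGM3, 2.06 for TNFRSF19 and 1.69 for ACSL3, each with an adjusted p of 0.0872. Each was called in 2 of the 9 fits that left out a rat. PGM3 and TNFRSF19 also passed without rats 11 and 12 (adjusted p = 0.0751 and 0.0380) and ACSL3 did not (adjusted p = 0.170).

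Of the milk protein genes that passed the filter in both groups, 8 of 10 rose in LP and 6 of 6 in ML cells. In ML cells 19.7% of all genes of this kind were called higher. Levels were lower in ML cells, where CSN1S2A, CSN2, WAP and GLYCAM1 passed the filter in TGFBRi rats alone, and no change was read from them there. With them the count in ML cells was 10 of 10 (19.5% of all genes tested there were called higher). CSN3, for example, had a log2 fold change of 1.79 in LP and 3.13 in ML cells, and the difference did not pass for it. The G2/M genes that passed the filter in both groups held 12 of 16 higher calls in LP and 9 of 12 in ML cells, where 19.7% of all genes of this kind were called higher and 20.1% lower. The TGFβ targets held 8 of 17 lower calls in LP and 3 of 17 in ML cells, where 19.3% of all genes were called lower. The difference between the cell types was not tested for a list. Both cell types of a rat came from 1 library.

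LP cells chosen by the same rule from the luminal sorts of peripubertal virgin ACI rats (2180 cells, 3 vehicle and 3 TGFBRi rats, same dose and days) gave a comparison with no rat in common. ACI rats were about 35 days old at the start of dosing, so that strain and age differed together and cannot be told apart. In them 3261 of 9509 genes (34.3%) were called, 18.4% higher and 15.9% lower. Of the 1920 genes higher in SD that were tested in both, 892 (46.5%) were called higher in ACI, which is 51.2% of the ACI list. Of 1817 lower in SD, 861 (47.4%) were lower in ACI, or 57.3% of the ACI list. The effects had a Pearson r of 0.549 across 9462 genes, which share libraries and are not independent. A model of both strains called 0 of 10906 genes as different in effect (edgeR, 1220 at an unadjusted p under 0.05), and DESeq2 called 15. Milk proteins rose in ACI (7 of 9 that passed the filter in both groups), with WAP at 2.13 and CSN3 at 1.29, and the respiratory chain list held 16 of 26 higher calls. The cell cycle genes that passed it in both groups held 1 of 15 higher S phase calls (GMNN) and 2 of 9 higher G2/M calls (AURKA and HMMR), where 20.4% of all genes of this kind were called higher and 15.2% lower. Of the TGFβ targets 4 fell and 2 rose, CCN2 among the former, which passed in vehicle rats alone, and SMAD7 had -0.22 (adjusted p = 0.429).

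Whole mammary glands of 9 further SD rats (3 vehicle, 6 TGFBRi) had been profiled without a sort and with a 5′ in place of a 3′ chemistry, and 6801 of their cells passed the rule after a filter for epithelial cells. In them 3832 of 11381 genes (33.7%) were called, 17.5% higher and 16.2% lower. The effects in the 2 sets of SD rats had a Pearson r of 0.0519 across 10332 genes, which are not independent, and the same sign for 52.3% of the genes called in the sorted cells, against 54.01% of all genes. Of 2053 genes higher in the sorted LP cells, 376 (18.3%, and 19.6% of the whole-gland list) were higher in the whole-gland LP cells, against 18.5% of all genes, and 255 were lower. Of 1843 lower genes 196 (10.6%, and 12.2% of the whole-gland list) were lower against 15.5% of all genes, and 323 were higher. Rats, sort, chemistry and counting version differed together between the sets and cannot be told apart.

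Some groups still held calls of the same direction in whole-gland LP cells. Of 10 milk protein genes 4 rose and 0 fell, with WAP at 2.54 (adjusted p = 0.0846), XDH at 2.08 and GLYCAM1 at 4.15. CSN1S1 and CSN3 did not pass (adjusted p = 0.665 and 0.287). TGFβ targets held 11 lower calls of 23, with CCN2 at -2.73, LTBP2 at -2.19 and THBS1 at -1.76, while SKIL and SMAD7 had -0.21 and 0.25 without passing. Of 14 milk fat genes that passed the filter in both groups 6 rose and 2 fell, and FASN rose in all 3 sets, with a log2 fold change of 2.08 here.

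In other groups such calls were few, or most calls went the opposite way. Respiratory chain genes held 1 higher call of 26 (UQCRC2), ribosomal protein genes 0 of 33, S phase genes 1 of 29 (UNG) and G2/M genes 0 of 38. Of 15 clock genes that passed the filter in both groups 6 rose and 2 fell, where the sorted cells had 4 of 13 lower, and of all whole-gland genes of this kind 17.2% rose and 17.6% fell. Of 15 heat shock genes 1 rose (HSPA8) and 5 fell, HSPB1 and HSPD1 among them, where the sorted cells had 7 higher and 0 lower. Of 19 junction genes 2 rose and 12 fell, so that lower calls were the more frequent as in the sorted cells, but with CLDN3 and CLDN7, which had risen there, among them. Of 17 integrated stress response genes 9 fell and 0 rose, with SLC7A5 at -1.38 against 1.76 in the sorted cells and HERPUD1 at -1.16 against 1.17. NFIB and STAT5B, lower in the sorted cells, were higher there, at 1.04 and 1.21. Whole-gland LP cells also held UMIs of other cell types at a higher level, with ACTA2 at 70.8 to 209 CPM in vehicle rats against at most 2.45 in the sorted LP cells, and their part in these differences was not tested.

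**Figure D5:**
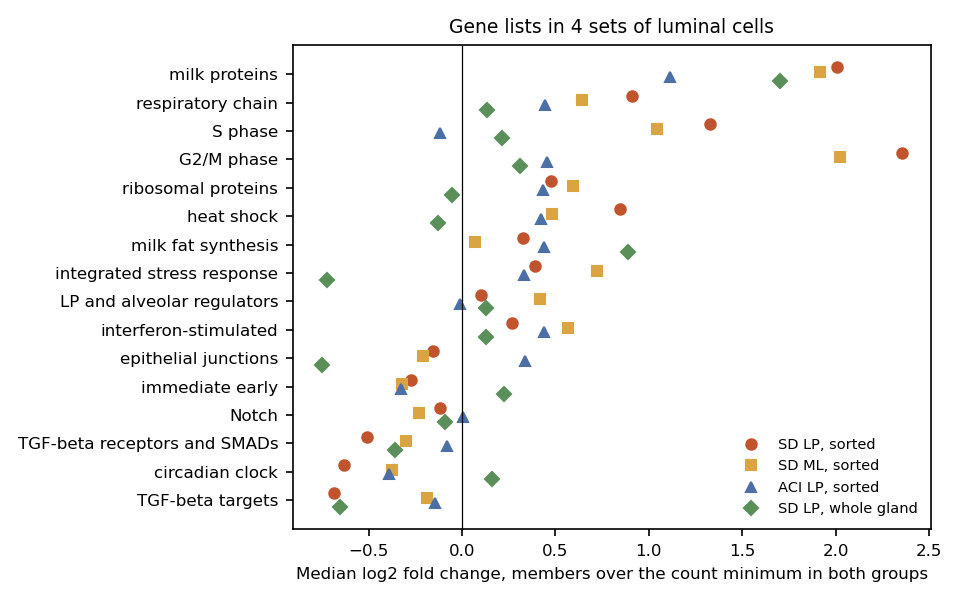
Median log2 fold change with TGFBRi over the members of each gene list that passed the filter in both groups, in sorted SD LP cells, sorted SD ML cells, sorted ACI LP cells and whole-gland SD LP cells; each mark is 1 list in 1 set. The milk protein median lies at 2.01, 1.92, 1.11 and 1.70 in these sets, while the clock median is -0.63 in sorted and 0.16 in whole-gland SD LP cells, and the integrated stress response median 0.39 and -0.72.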

How the data were processed

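Per the labels, the authors aligned the single-cell reads to rn6 and counted UMIs with Cell Ranger 4.0.0 or 7.0.0. The UMI counts deposited are raw counts per gene and cell, after the authors' filters in Seurat 4.0.0 or 4.1.1 (genes in at least 10 cells, and cells with at least 100 genes, at most 15% mitochondrial reads). In the sorted samples the authors also removed cells with a PTPRC read or under 2 keratin reads, a step omitted for whole glands, and cells of one sort in clusters made up almost wholly of the other. The lowest cell total was near 500 UMIs, a minimum not given in the sources used here. The members and the gene lists were chosen with earlier results of these data known.

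Cells were chosen by the rule of the opening, and UMIs were summed per rat. Sums were tested with edgeR 4.0.16 (quasi-likelihood, robust, TMM, filterByExpr) in R 4.3.3, with Benjamini-Hochberg adjustment over all genes tested and calls at an adjusted p of at most 0.1. Standard errors came from DESeq2 1.42.0. A p-value measures the spread between rats. LP and ML sums of a rat shared 1 library, which entered as a block. Whole-gland cells also had to hold at least 2 keratin UMIs and no PTPRC UMI. The text names the 10 genes with the largest change in each direction among called genes with a mean of at least 20 UMIs per rat and no overlap between the groups, called members of the lists, up to 4 members of each list with the highest level, and genes whose effects differed between cell types. XDH, TGFB1, TGFBR1, TGFBR2, TGFBR3, TOP2A, COX6C, XBP1, CYP24A1, FTH1, the genes highest in LP over ML cells and members called in other comparisons alone were chosen after their values were seen. The division of tested genes by the group in which they passed the filter was added after their values were seen. Some genes that were counted, 1 of the 4 differences between LP and ML effects among them, are not reported here by name.

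Thinning drew 4000 UMIs from each cell without replacement. The sort gated against doublets by scatter, no doublet step after sequencing is given in the sources used here, and the 6% of cells with the highest Scrublet scores (scanpy 1.11.5) were left out as 1 alternative. Other alternatives were DESeq2, RLE size factors, no filter on low counts, each rat left out, stricter and looser cell rules, and equal cell numbers. Cells with at least 5 G2/M UMIs before thinning, and cells with basal or stromal UMIs, were each left out as further alternatives. Simulated counts for the SD LP comparison held 10631 tested genes. Of 100 genes planted there with a log2 change of 1, 26% were called, and of 100 with 2, 88%, beside 14 others. The comparison itself called 4034 of 10802 genes, far more than were planted, and the Benjamini-Hochberg adjustment depends on that number. The share of changed genes that the comparison detected was not tested. Promoters are from RefSeq, build GRCr8, which is not the build of the counts. Bulk tables of the series were not used here.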

Additional observations from a re-analysis of the deposited data

Results flagged for a closer look

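Among 162 summed levels, gene levels and cell statistics of the 6 TGFBRi rats, 7 had 1 rat farther from the others than Dixon's 95% limit, and chance gives about 1 in 20. The median LP cell of rat 11 held 17090.5 UMIs, against 6434 to 9979 in the other TGFBRi rats. CSN1S2A, coding for an αs2-casein, was at 1869.5 CPM in rat 11 against 6.58 to 534. In rat 12 the summed level of MHC class II genes was 607 CPM against 19.8 to 150.02, and that of cholesterol synthesis genes 606 CPM against 325 to 411. LOC108348061 had 109 CPM in rat 12 against 10.1 to 30.0. In rat 14 chemokine and cytokine genes summed to 24111 CPM against 7019 to 12835. Endothelial markers summed to 2.27 CPM in rat 14 against 0.989 to 1.47, near 0 in all rats.

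The effect of TGFBRi differed between LP and ML cells by a test of the difference for 4 genes. The log2 differences, LP minus ML, were 1.45 for PGM3, 2.06 for TNFRSF19 and 1.69 for ACSL3 (edgeR, adjusted p = 0.0872 for each).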

How the results depend on the processing

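The number of called genes in SD LP cells stayed between 2803 (cells thinned) and 4473 (DESeq2) under every change of tool, filter, scaling or cell rule, and at 2739 without rats 11 and 12. With 1 rat left out it ranged from 2 to 4804, and the calls among the 20 genes of largest change from 1 to 20 (7 without vehicle rat 3 and 1 without vehicle rat 1). In SD ML cells 4276 genes were called, 2025 without rats 11 and 12, and 1924 to 4986 with 1 rat left out. In ACI LP cells 3261 were called, 2074 with DESeq2, and 2406 to 2955 with 1 rat left out. In whole-gland LP cells 3832 were called, and 2041 to 3864 with 1 rat left out, the lowest without vehicle rat 1. The labels give whole-gland rats of both groups the numbers 1, 2 and 4, which did not pair them (correlations of same-numbered deviations 0.293, -0.380 and -0.0623), and with the number as a replicate block 1555 genes were called. The 4 differences between LP and ML effects became 132 with DESeq2, 16 without the filter on low counts, 22 without rats 11 and 12, 0 without the library as a replicate block (401 at an unadjusted p under 0.05), and 0 to 10 with 1 rat left out. The 0 differences between SD and ACI became 15 with DESeq2, and 0 to 12 with 1 rat left out, the highest without SD TGFBRi rat 14. The difference in LP share was -30.8 points in thinned cells, where it passed, and -25.0 to -14.3 with 1 rat left out. The share counts cells by the rule genes, whose level moved with it, so that no change in the share is read from these values. The difference in G2/M-high share, 10.3 points, was 6.36 to 12.5 and that in keratin share, 0.0333 points, -0.00496 to 0.0754 with 1 rat left out, and without rats 11 and 12 they were 1.83 and 0.131 points.

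Of 124 genes followed, 122 kept direction and call with DESeq2 and 122 with RLE, 22 without vehicle rat 1, 30 without vehicle rat 3 and 96 without rats 11 and 12. CD14 changed sign (-0.026 to 0.32 with 1 rat left out, below 0 without vehicle rat 2) and had not passed with all rats. The cause was not tested. Genes with few UMIs per rat limit what could be detected.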

Other observations

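Stress and immune lists outside the results above were read against the 19.1% of all genes that rose and 18.2% that fell in SD LP cells. Of 12 tested genes of the NRF2 response to oxidants 4 rose (HMOX1, GSTA4, GSTP1 and TALDO1) and 0 fell. HMOX1, coding for heme oxygenase, had 97.5, 57.2 and 48.9 CPM in vehicle rats and 47.02 to 751, median 123, in TGFBRi rats (log2 fold change 2.16 ± 0.94, adjusted p = 0.0956). GSTP1 and TALDO1 rose without rats 11 and 12 as well, and HMOX1 and GSTA4 did not pass. In whole-gland LP cells 1 of 13 rose (GSR) and 8 fell, HMOX1 among them. Of 21 tested interferon-stimulated genes 6 rose and 1 fell, and without rats 11 and 12 the counts were 3 (OASL, IFI27 and BST2) and 1 (IRF9). BST2, an antiviral membrane protein, had 33.3, 48.3 and 61.6 CPM against 43.9 to 154, median 69.1 (log2 fold change 1.06 ± 0.38, adjusted p = 0.0616). Of 5 tested MHC class II genes 1 rose, RT1-BB (log2 fold change 2.41 ± 1.04, adjusted p = 0.0996), and 0 did without rats 11 and 12, where RT1-BB had 1.03 (adjusted p = 0.321).

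Chemokine and cytokine genes were abundant in LP cells, at 11329, 11582 and 5241 CPM in sum in the vehicle rats and 7019 to 24111, median 11554, in TGFBRi rats. Of 17 tested 1 rose, NFKBIA, the NF-κB inhibitor (log2 fold change 0.68), and 1 fell, CX3CL1, coding for fractalkine (-0.81). Among those that passed the filter in both groups, 9 of 17 fell in whole-gland LP cells and 6 of 11 rose in ACI LP cells. Of 14 tested glucocorticoid-responsive genes 1 rose (ANGPTL4) and 2 fell (PER1 and KLF9), and without rats 11 and 12 LCN2 rose and ANGPTL4 did not pass.

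Of 17 tested cholesterol synthesis genes 3 rose (FDPS, IDI1 and PMVK) and 1 fell (LSS). Without rats 11 and 12, of which rat 12 had the highest summed level of this list among TGFBRi rats, 1 rose (FDPS) and 2 fell (HMGCS1 and LSS), and the median was -0.10 in place of 0.02. FDPS, an enzyme of isoprenoid synthesis, rose in ACI LP cells as well (log2 fold change 0.57). Among 13 tested secretory and defence genes 1 fell, CP, coding for ceruloplasmin (log2 fold change -1.23), and without rats 11 and 12 2 rose as well (LCN2 and LGALS3). Of 5 tested mature luminal genes 0 rose and 0 fell, and of 4 basal keratins KRT5 fell (log2 fold change -1.10). Markers of a secretory basal state, which the study chose on these samples, are not independent evidence. In LP cells they summed to 146, 168 and 149 CPM in vehicle and 75.04 to 117, median 101.7, in TGFBRi rats, without overlap, where plain CPM put 27.8% of all genes lower without overlap. Of 5 tested 2 fell (EPAS1 and SORBS2), 1 without rats 11 and 12 (EPAS1), while the median log2 fold change of the list with TMM scaling was 0.32.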
